A study of Mus musculus with 6 samples.

Results

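The SH-80 arrays are 3 dual-colour Agilent 4x44K mouse expression arrays (replicates 1 to 3), out of 6 in the series, and they were chosen by their titles. The other 3 carry SH-42, and both compounds are known here only by these code names. Every mouse was an adult male C57BL/6 animal, and each group had 12 mice. The right eye received SH-80, SH-42 or phosphate-buffered saline (the control) by injection into the vitreous, at a labelled dose of 1 µM, and retinas were taken 7 days later and pooled by 4. On each SH-80 array, per the labels, the green channel (Cy3) held RNA of retinas given SH-80 and the red channel (Cy5) held RNA of control retinas. No array had the dyes exchanged, so an effect of the dye on a single gene remains in its ratio. The labels do not say whether every array had pools of its own, and 12 mice pooled by 4 would give 3 control pools for 6 arrays, so p-values measure the spread between arrays only. In pooled retinas, fewer cells of a type and less RNA per cell cannot be told apart.

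The neural retina holds rods and cones, which turn light into a signal, the bipolar, horizontal and amacrine cells that relay it, and the ganglion cells whose axons form the optic nerve. Muller glia span the tissue, astrocytes line its inner surface, and microglia are its resident immune cells. After injury, Muller glia and astrocytes make more of the filament protein Gfap, and microglia turn on complement and lysosomal genes. The lens lies in front of the vitreous, and its fibre cells are filled with crystallin proteins that retinal neurons make little of.

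The labelled tissue fitted its markers: all 16 defining retina genes (among them Arr3 of cones, Grm6 of bipolar cells, Gad1 of amacrine cells, Rbpms of ganglion cells and Rlbp1 of Muller glia) were well above background in both channels of all 3 SH-80 arrays. Of 9 genes of neighbouring tissue, 4 were so as well, namely Rpe65 and Rgr of pigment epithelium, Acta1 of muscle and the globin gene Hba-a1. In Cy3 59.3% to 62.3% of an array's spots cleared background well, in Cy5 74.5% to 76.7%, and saturated spots numbered 0. The files give no counts, and the number of arrays limits the precision. Signed values are log2 of Cy3 over Cy5 after background correction and loess normalization, so a value above 0 means more signal in the channel labelled SH-80. The authors' deposited table has the ratio turned round, Cy5 over Cy3, and which channel held which RNA was not settled. If the dyes were exchanged, every sign given here would turn.

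Signals of single channels were compared after the arrays were brought to a common distribution of mean log signal over both channels. Across the 3 SH-80 arrays the channel labelled SH-80 then hardly varied, while the channel labelled control did. Over 18566 genes well above background in both channels, the 3 arrays' log2 signals had a median SD of 0.0371 for Cy3 and 0.086 for Cy5, and Cy5 had the larger SD for 81.8% of the genes. Log signals correlated across genes at 0.9993 to 0.9994 between the Cy3 channels of the SH-80 arrays and at 0.988 to 0.997 between their Cy5 channels. Over all 15 pairs of the 6 arrays, pairs of an SH-80 with an SH-42 array included, the Cy3 channels still correlated at 0.997 to 0.999, although the labels give that channel 2 compounds. Log ratios of the SH-80 arrays correlated across genes, which are not independent replicates, at 0.505 to 0.867, with replicates 1 and 3 at the upper end. SH-80 replicate 2 correlated with replicates 1 and 3 at 0.505 and 0.558. SH-42 replicate 3 correlated with SH-80 replicates 1, 2 and 3 at 0.696, 0.760 and 0.716. The SH-80 arrays were thus not all more alike among themselves than to that array. For SH-42 replicate 2 these values were 0.580, 0.471 and 0.653, and for SH-42 replicate 1 -0.155, 0.164 and -0.134. SH-80 replicate 2 was the odd one in direction, with 260 of its 405 genes beyond 2-fold lower in Cy3. On SH-80 replicate 1 these were 23 of 274 and on replicate 3 50 of 366.

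**Figure D1:**
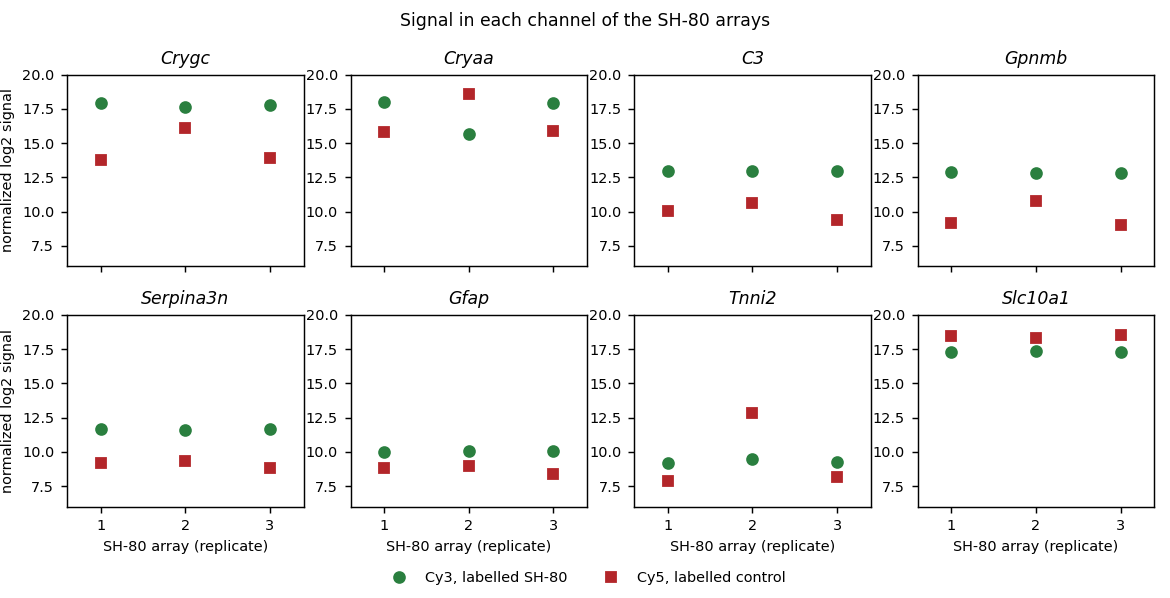
Normalized log2 signal (vertical axis) of 8 genes on SH-80 replicates 1 to 3 (horizontal axis), with green circles for Cy3 (labelled SH-80) and red squares for Cy5 (labelled control), 1 probe per gene and no error bars. For 7 of the 8 genes Cy3 is nearly level, Cryaa being the exception, while Cy5 of the lens genes Crygc and Cryaa and the muscle gene Tnni2 is highest on replicate 2.

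The question of the first comparison is which genes differ between retinas labelled SH-80 and control retinas. The gamma crystallin genes Cryga to Crygf of the lens, complement C3 and the acute-phase gene Lcn2 stood higher in the channel labelled SH-80. For Lcn2, C3 and Crygc the difference, by the brightest probe of each, was 3.69-fold to 9.17-fold. The gamma crystallin median was above 0 on every SH-42 array as well. Genes of microglia stood higher on every SH-80 array without passing the test. Their median was above 0 on SH-42 replicates 2 and 3 as well. The medians of photoreceptor and neuron lists lay close to 0 and slightly below it. Of the named genes that passed as lower, most of those with the lowest means were among the brightest on the array. Of 24079 genes tested (limma on all 6 arrays, Benjamini-Hochberg adjusted p under 0.05), 3533 passed, which is 14.7%. Of these, 1111 (4.61% of all genes) were higher and 2422 (10.1%) lower in Cy3, and 487 differed by at least 1.5-fold. Of the higher calls 82.6%, and of the lower calls 85.3%, had the same sign on all 3 SH-42 arrays too. Those calls thus shared their sign with the SH-42 arrays, which also share the estimate of the spread. The matching share of all genes was not counted, so these shares have no baseline and nothing more is read from them. Without adjustment 8544 genes had a p under 0.05. The median log ratio of all genes was -0.0305, and 44.4% lay above 0.

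Leaving out 1 array changed this count. Without SH-80 replicate 1, 2 or 3 it was 0 (limma, 5930, 5629 and 4664 genes at an unadjusted p under 0.05), and leaving out SH-42 replicate 1 gave 9345 calls and leaving out SH-42 replicate 2 gave 2267, since the SH-42 arrays share the estimate of the spread. Without both SH-42 replicate 1 and SH-80 replicate 2, a choice made after seeing the data, 5989 genes passed, 3017 of them among the 3533. All 3 SH-80 arrays and SH-42 replicate 3 were on slide 2, and SH-42 replicates 1 and 2 on slide 1. With slide as a fixed block, whose effect then comes from the SH-42 arrays alone, 0 genes passed (limma, 2988 at an unadjusted p under 0.05), and 9198 passed with the SH-80 arrays alone, which share a slide. Scale normalization between arrays left 731 calls, 265 higher and 466 lower. Of the 2422 lower genes, 746 (30.8%) were not well above background in Cy3 on any SH-80 array.

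**Figure D2:**
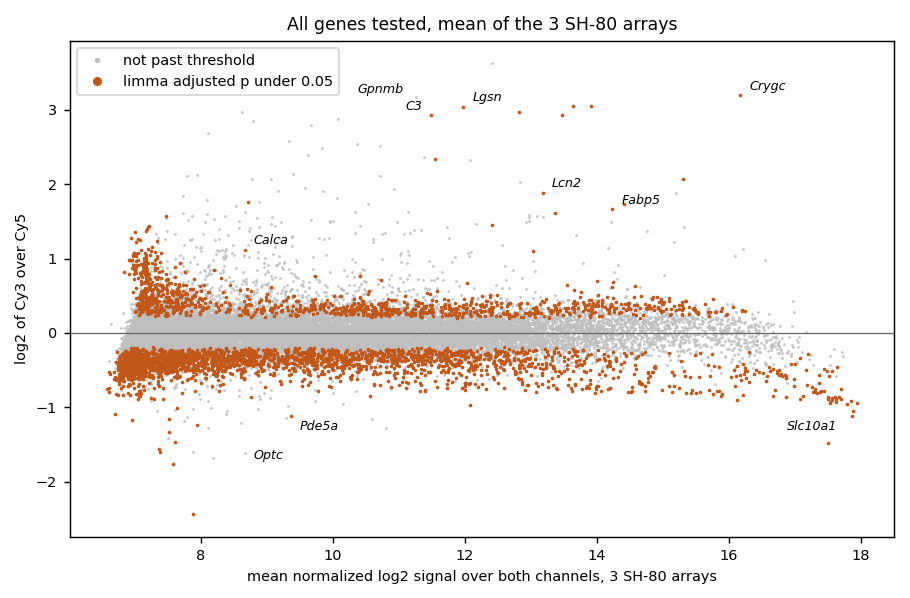
Each point is 1 of the genes tested: the horizontal axis is its mean normalized log2 signal over both channels of the 3 SH-80 arrays, and the vertical axis its mean log2 of Cy3 over Cy5. Orange points passed limma's adjusted p of 0.05 and grey points did not, and the bright genes Crygc at 3.20 and Slc10a1 at -1.11 are named in it with 8 others. Some dim genes and genes without a symbol, which the text does not name, lie beyond them.

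Among named genes that passed, were well above background in both channels and had 1 sign on every array and probe, 5 of the 8 highest means belonged to gamma crystallins, small structural proteins that pack the core of the lens. Their genes A to F lie on mouse chromosome 1. Of 8 gamma crystallin genes measured, 6 passed as higher in Cy3 and 0 as lower, against 4.61% and 10.1% of all genes. The 120 bases before the annotated start of these 6 genes are shown because these genes carry most of the highest ratios that passed and stand on 2 strands. The sequences are from RefSeq, build GRCm38.p6, each 5′ to 3′ on its gene's strand. They lie at chr1:65103364-65103483 (Cryga), chr1:65082291-65082410 (Crygb), chr1:65073533-65073652 (Crygc), chr1:65063441-65063560 (Crygd) and chr1:65051164-65051283 (Cryge) on the minus strand, and at chr1:65926402-65926521 (Crygf) on the plus strand. Capitals mark TTTGTG and TATATA (searched on both strands, overlapping matches joined), letters chosen by looking at these same sequences.
Cryga: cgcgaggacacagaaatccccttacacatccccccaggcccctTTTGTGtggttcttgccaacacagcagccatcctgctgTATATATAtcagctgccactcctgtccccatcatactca
Crygb: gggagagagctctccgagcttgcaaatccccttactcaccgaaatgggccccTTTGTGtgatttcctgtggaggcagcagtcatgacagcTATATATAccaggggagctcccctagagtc
Crygc: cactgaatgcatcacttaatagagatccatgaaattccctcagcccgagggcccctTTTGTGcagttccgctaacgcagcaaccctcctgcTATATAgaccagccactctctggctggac
Crygd: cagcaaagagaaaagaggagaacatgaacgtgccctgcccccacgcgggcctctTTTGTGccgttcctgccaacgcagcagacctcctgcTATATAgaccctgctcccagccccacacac
Cryge: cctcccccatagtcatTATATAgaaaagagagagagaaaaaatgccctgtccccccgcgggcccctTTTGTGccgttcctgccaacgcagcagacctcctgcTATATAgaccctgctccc
Crygf: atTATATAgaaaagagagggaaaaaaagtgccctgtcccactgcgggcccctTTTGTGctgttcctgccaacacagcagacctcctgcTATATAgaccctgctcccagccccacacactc
All 6 windows held both motifs, while TTTGTG was in 7.3% and TATATA in 2.51% of 32851 windows of 120 bases before a start, and both were in 0.304%. The longer CTTTTGTG was in 5 of the 6 windows (absent from that of Crygb) and in 0.563% of all. A match describes the letters only. The windows of Crygd, Cryge and Crygf are alike over long runs, as such close copies of a gene are, and how far a probe for 1 of them binds RNA of another was not tested, so their separate values are uncertain.

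Crygc lay at 4.18, 1.52 and 3.89 on SH-80 replicates 1, 2 and 3. Its Cy3 signal was 17.93, 17.60 and 17.79 and its Cy5 signal 13.75, 16.07 and 13.90, so the lower ratio of replicate 2 went with more Cy5. The mean was 3.20 ± 0.573 (log2 ± SE, n = 3), a 9.17-fold difference (limma adjusted p = 0.029). Other Crygc probes averaged 2.75 and 2.35. Cryge lay at 3.52, 2.15 and 3.48 (mean 3.05 ± 0.329, adjusted p = 0.0156) and Crygf at 3.43, 2.15 and 3.35 (2.98 ± 0.317, adjusted p = 0.0156). Cryga at 3.05, Crygb at 2.93 and Crygd (outside the naming rule) at 2.08 had the same order of arrays, with replicate 2 lowest. The 2 gamma crystallins that did not pass behaved otherwise, and their ratios changed sign on replicate 2. Crygs lay at 2.77, -1.85 and 2.47, and Crygn at 1.27, -2.61 and 1.18. On the SH-42 arrays the gamma crystallin median was 2.27, 0.58 and 1.04, and Crygc lay at 2.41, 0.52 and 1.02.

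Alpha and beta crystallins, which make up most of the remaining lens protein, went like Crygs. Of 8 measured, 0 passed in either direction by limma (0 at an unadjusted p under 0.05), with a median of 1.40, yet the medians of the single arrays were 2.75, -1.61 and 2.67. Cryaa, the small heat shock protein of the lens, lay at 2.20, -2.92 and 2.01 (mean 0.43 ± 1.09, limma adjusted p = 0.808), with a Cy5 signal of 15.80, 18.59 and 15.89, and its mean was -0.0339 with arrays centred on their medians in place of loess. Cryba1 (3.02, -1.77 and 2.87), Cryba2 (3.07, -1.55 and 2.95), Crybb1, Crybb3 and Cryba4 had the same shape. The summed Cy5 signal of the list, as log2, was 16.62, 19.94 and 16.68 on replicates 1, 2 and 3, and that of the gamma crystallins 15.89, 18.49 and 16.15. In Cy3 these sums were 18.94, 17.82 and 18.87 for the alpha and beta list and 19.23, 18.86 and 19.18 for the gamma list.

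Other genes of lens fibres split the same way. Of 16 measured members, 4 passed as higher in Cy3 and 0 as lower, 11 lay above 0, and the median was 1.04. Among all genes 4.61% passed as higher, 10.1% as lower and 44.4% lay above 0. Lgsn, a lens relative of glutamine synthetase, lay at 3.65, 1.79 and 3.69 (3.04 ± 0.492, limma adjusted p = 0.0275). Bfsp1, which forms the beaded filament of lens fibres, lay at 3.30, 0.60 and 3.12 (2.34 ± 0.568), Birc7 at 2.00, 1.29 and 2.00, and the lens epithelial gene Lenep at 1.77, 0.93 and 1.65. All 4 were lowest on replicate 2 and stayed above 0 there. Mip, the water channel of the fibre membrane, lay at 3.28, -2.03 and 2.92 and did not pass. The log2 sum of this list was 16.33 to 16.36 in Cy3, and in Cy5 it was 16.35 on replicate 2 against 15.33 and 15.30 on the others. The part of lens RNA in the results of other genes was not tested.

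Complement, the plasma and tissue cascade that tags cells and debris for removal, had 2 of 17 measured genes higher in Cy3 and 0 lower, with 16 above 0 and a median of 0.594. Among all genes 4.61% passed as higher, 10.1% as lower and 44.4% lay above 0. C3, its central component, lay at 2.92, 2.31 and 3.56 on the 3 SH-80 arrays. Its Cy3 signal spanned only 12.94 to 12.96, and its Cy5 signal was 10.05, 10.62 and 9.40. The mean was 2.93 ± 0.728, a 7.62-fold difference that passed narrowly (limma adjusted p = 0.0469), and its other probe lay at 2.04. Cfb, the protease of the alternative pathway, lay at 0.97, 0.70 and 1.14 (0.94 ± 0.231, adjusted p = 0.046). C4b of the classical pathway (0.89, 0.97 and 1.41) and its inhibitor Serping1 (1.497, 0.80 and 1.86) were above 0 on every SH-80 array but did not pass (adjusted p = 0.0748 and 0.0945). On the SH-42 arrays, which share the estimate of the spread, C3 lay at -1.04, 1.66 and 3.20.

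Genes of gliosis, the reaction of Muller glia and astrocytes to damage, had 3 of 24 members higher and 0 lower, 22 above 0 and a median of 0.535, beside the same shares of all genes (4.61%, 10.1% and 44.4%). Lcn2, an acute-phase protein that binds bacterial siderophores, lay at 1.69, 1.98 and 1.98 (1.88 ± 0.461, 3.69-fold, limma adjusted p = 0.0454). Lif, a cytokine made by Muller glia after damage, lay at 1.09, 0.67 and 0.60 (adjusted p = 0.0429). Steap4, a metalloreductase, averaged 1.08 (adjusted p = 0.0456), with Cy5 well above background on 1 of the 3 arrays. Serpina3n, a protease inhibitor of reactive astrocytes, was higher still at 2.48, 2.26 and 2.88, but its mean of 2.54 ± 0.744 did not pass (adjusted p = 0.0663). Gfap, the filament gene used most as a sign of gliosis, lay at 1.15, 1.07 and 1.64 (1.29 ± 0.534, adjusted p = 0.142). For both genes the 3 SH-80 arrays lay close together, while limma's SE also rests on the SH-42 arrays, where Gfap lay at -1.97, -0.19 and 1.24.

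Microglia and macrophage genes showed this more widely. Of 23 measured, 22 lay above 0 on all 3 SH-80 arrays, where 29.4% of all genes did, and the list medians of the arrays were 0.978, 0.889 and 1.24. By limma 0 passed as higher, although the list median was 1.05 and 13 were higher at an unadjusted p under 0.05. Gpnmb, a lysosomal glycoprotein of phagocytes, lay at 3.67, 2.04 and 3.81 (3.17 ± 0.862, limma adjusted p = 0.0565). Tyrobp, the signalling adaptor of microglial receptors, lay at 2.34, 2.08 and 2.68 (adjusted p = 0.0732), and P2ry12, the ADP receptor of resting microglia, at 0.14, 0.35 and 0.43. Aif1, the usual microglial stain, lay at 0.98, 0.93 and 1.24 (1.05 ± 0.489, adjusted p = 0.18). With slide as a fixed block, whose effect comes from the SH-42 arrays alone, Aif1 was -0.00643. The 1 member that passed was lower: Itgam, a myeloid integrin, at -0.51, -0.46 and -0.78, while another of its probes averaged 0.44.

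**Figure D3:**
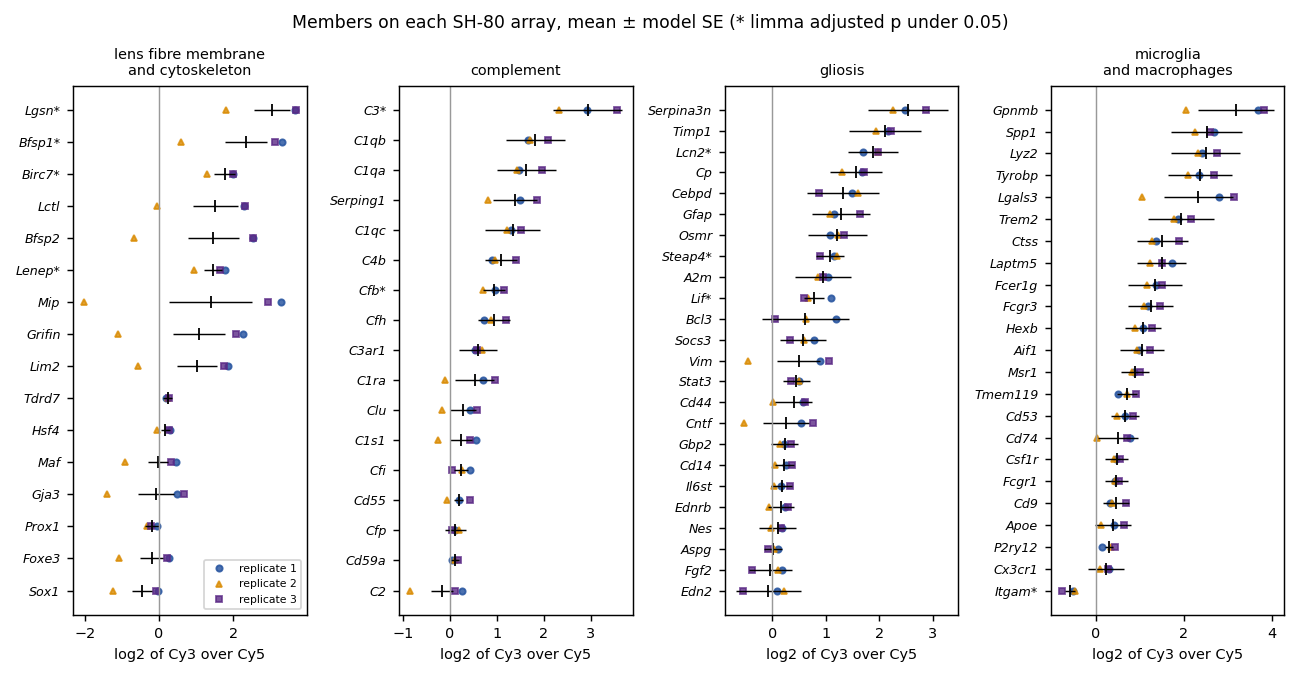
Log2 of Cy3 over Cy5 (horizontal axis) of the measured members of 4 gene lists on SH-80 replicates 1 (blue circles), 2 (orange triangles) and 3 (purple squares), with black ticks for the mean and bars for the model's SE, n = 3. Asterisks mark limma adjusted p under 0.05; lens members spread widely because replicate 2 is low, while the 3 arrays lie close together for most complement, gliosis and microglia genes.

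Signals between immune cells gave 2 calls. Of 18 chemokine and cytokine genes, 1 passed as higher and 1 as lower, where 4.61% and 10.1% of all genes did. The neutrophil attractant Cxcl1 was the higher one (1.02, 0.78 and 0.64, limma adjusted p = 0.0339). Its Cy3 was well above background on 1 SH-80 array and its Cy5 on 0. Its 1.75-fold difference is the plain estimate, not a lower bound, and rests on signals near background. Cxcl9, a chemokine induced by interferon gamma, was lower at -0.58, -0.63 and -0.70 (adjusted p = 0.0243). Ccl2, which draws monocytes, lay at 1.53, 0.96 and 1.68, and Ccl12 at 0.72, 0.94 and 0.96, both short of the threshold (adjusted p = 0.0913 and 0.0896). Of 25 interferon response genes 0 passed by limma (5 at an unadjusted p under 0.05), with a median of 0.269 and 20 above 0 on all 3 arrays, and Oas1a, a sensor of double-stranded RNA, had the highest mean at 1.09. Of 20 antigen presentation genes 0 passed by limma (2 at an unadjusted p under 0.05), with a median of 0.519 and Ctss, a lysosomal protease that trims antigen, at 1.37, 1.27 and 1.89. On SH-42 replicates 1, 2 and 3 the interferon median was -0.69, -0.16 and 0.38 and the antigen presentation median -1.17, -0.05 and 0.65. The H2-T23 mean of 0.70 on the SH-80 arrays became -0.0577 and the Psmb10 mean of 0.33 became -0.0255 with slide as a fixed block.

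Of 21 heat shock genes 4 passed as higher and 0 as lower, where 4.61% of all genes passed as higher and 10.1% as lower, and the other stress lists gave at most 1 call in each direction. The small chaperone Hspb1, also a lens and glial protein, was the largest of these at 1.45, 0.62 and 1.25 (1.11 ± 0.253, limma adjusted p = 0.0398). Hsph1 lay at 0.36 (adjusted p = 0.028), and the co-chaperones Cdc37 at 0.30 and Ptges3 at 0.23 turned to -0.0516 and -0.066 with arrays centred on their medians in place of loess, another probe of Ptges3 lying at -0.29. Among 18 targets of the oxidative stress regulator NRF2, 1 passed as lower, the catalase gene Cat at -0.43 (adjusted p = 0.0274, another probe at 0.24), while Gsta1 at 0.91 and Gclm at 0.40 did not pass. Among 16 iron genes, Lcn2 was higher and Aco1, an iron-sensing aconitase that was not well above background in Cy3, lower (at least 1.20-fold), and Cp, the ferroxidase ceruloplasmin, lay at 1.67, 1.30 and 1.72 (adjusted p = 0.0767). For the remaining stress lists, 0 of 20 unfolded protein response genes passed as higher and 1 as lower (Atf4, a transcription factor of that response, at -0.30), and of 20 p53 and apoptosis genes 1 passed as lower, the survival gene Bcl2l1 at -0.32, with another probe at 0.20.

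Photoreceptor and neuron lists had medians close to 0. Of 26 rod genes 0 passed as higher and 1 as lower, with 6 above 0 and a median of -0.115, where 4.61% of all genes passed as higher, 10.1% as lower and 44.4% lay above 0. The lower one was Rdh12, which clears retinal aldehydes (-0.38, -0.38 and -0.50, limma adjusted p = 0.0385), and Prph2, a structural protein of the outer segment, lay at -0.64, -0.44 and -0.65 (adjusted p = 0.0529). In 14 cone genes, Pde6h, the inhibitory subunit of the cone phosphodiesterase, was higher at 0.29, 0.49 and 0.38 (adjusted p = 0.0266), and Arr3, the cone arrestin, lower at -0.36, -0.47 and -0.75 (adjusted p = 0.0441). On the SH-42 arrays Pde6h lay at 0.29, 0.31 and 0.36, and Arr3 at 0.20, -0.12 and -0.40. Opn1mw, the cone opsin for middle wavelengths, lay at -0.47 on the SH-80 arrays and did not pass. Of the 26 rod genes, 14 were below 0 on all 3 SH-80 arrays, against 38.8% of all genes. The rod and cone medians became -0.504 and -0.31 with arrays centred on their medians, a scaling that moved the median of all genes to -0.15.

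By limma 0 of 18 bipolar cell genes and 0 of 17 ganglion cell genes passed, with 1 of each at an unadjusted p under 0.05. Among all genes 4.61% passed as higher and 10.1% as lower. The ganglion cell list had 2 members above 0, where 44.4% of all genes were. Of its 17 members, 13 were below 0 on all 3 SH-80 arrays, against 38.8% of all genes. Its median was -0.178 and its array medians were -0.175, -0.0929 and -0.357. Rbpms, which marks these cells, lay at -0.06, -0.01 and -0.14 (limma adjusted p = 0.629), with probes of both signs and a mean of 0.0437 with slide as a fixed block. Pou4f1, a transcription factor of ganglion cells, lay at -0.33, -0.24 and -0.60 (adjusted p = 0.29). Of bipolar cell genes, the kinase gene Prkca lay at -0.38 and did not pass. In 18 amacrine cell genes Dab1 was lower (-0.50, another probe at 0.24), and in 11 horizontal cell genes Ndrg1 was higher (0.24, but -0.0911 with arrays centred on their medians). Lhx1 (at least 1.23-fold) and Onecut1 (0.0586 with that centring) passed as lower without being well above background in Cy3. Of 21 synapse genes the scaffold gene Dlg4 was higher at 0.41 and the ribbon gene Ctbp2 lower at -0.30.

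Of 19 Muller glia genes outside the gliosis list 0 passed as higher and 1 as lower, beside 4.61% and 10.1% of all genes. That 1 was Glul, the glutamine synthetase that turns glutamate into glutamine, at -0.40, -0.65 and -0.71 (-0.59 ± 0.116, limma adjusted p = 0.0324). Sox2, a transcription factor of these cells, lay at 0.31 and did not pass. Of 10 astrocyte genes 1 passed, as lower: Pax2, not well above background in Cy3. In the neighbouring pigment epithelium and choroid, 1 of 16 genes passed as higher: Rgr, an opsin that renews the visual pigment, at 0.43, 0.71 and 0.87 (adjusted p = 0.0486). Rpe65, the isomerase of the visual cycle, lay at 0.46, 0.54 and 1.105 (adjusted p = 0.0623), Lrat at 0.38, 0.58 and 0.97, and Ttr, the carrier of thyroxine and retinol, at 0.56, 0.61 and 1.27, so replicate 3 was highest for all 4. The summed Cy5 signal of this list was 15.85, 16.45 and 15.51 as log2 and its Cy3 signal 16.48 to 16.51, and its part in these values was not tested.

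Blood vessel genes gave 3 calls, where 4.61% of all genes passed as higher and 10.1% as lower. Of 22 endothelial and pericyte genes, Cldn5, a tight junction protein of the barrier, was higher at 0.54, 0.33 and 0.63 (0.50 ± 0.126, limma adjusted p = 0.0476), and Pecam1, an adhesion molecule of endothelium, lower at -0.37, -0.21 and -0.20 (adjusted p = 0.0461). Flt1, a receptor of vascular growth factor, lay at 0.56, 0.48 and 0.37 and did not pass. Of 22 angiogenic factor genes, 1 passed: Hif1a, the regulated subunit of the hypoxia factor, higher at 0.33, 0.35 and 0.61 (adjusted p = 0.0281). Hif1a lay at 0.47, 0.34 and 0.44 on the SH-42 arrays, beside its values on the SH-80 arrays. Vegfa, the main growth factor of vessels, lay at -0.27, -0.24 and -0.39 on the SH-80 arrays (-0.30 ± 0.0986, limma adjusted p = 0.0866).

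Genes of muscle and basement membrane set replicate 2 apart. Among genes with a symbol that were well above background in both channels, the widest ranges between SH-80 arrays were those of Myl1, a light chain of fast muscle myosin (1.86, -3.62 and 1.37), and of Nid1, a basement membrane protein (2.13, -3.22 and 2.07), and Tnni2 of muscle troponin followed the same course (1.36, -3.39 and 1.08). For Myl1 the Cy3 signal was 9.24, 9.14 and 9.23 and the Cy5 signal 7.38, 12.77 and 7.86. In all, 101 genes with a symbol ranged over more than 2 log2 units between the arrays. Replicate 2 was the lowest for 100 of them, and their median range was 0.124 in Cy3 and 2.73 in Cy5. The summed Cy5 signal of 16 skeletal muscle genes was 12.50, 15.13 and 12.66 as log2, against 12.74, 12.88 and 12.75 in Cy3.

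Surface epithelium and matrix genes showed the same array. The median of 14 corneal and surface epithelium genes was 0.0553, -1.20 and 0.086, with the keratin gene Krt5 at -0.31, -3.01 and -0.32, although its Cy3 signal was well above background on 1 array alone. Of 22 extracellular matrix genes, with medians of 0.217, -0.523 and 0.17, Optc of the vitreous and ciliary body lay at -0.72, -3.48 and -0.66. The 1 matrix gene that passed, Col6a1, did not follow this course, at -0.52, -0.61 and -0.84 (limma adjusted p = 0.0325). In the epithelial list Trp63, a transcription factor of basal cells, was the 1 gene that passed, at -0.44 (adjusted p = 0.0338). Without replicate 2 the skeletal muscle median went from -0.259 to 0.32 and the epithelial one from -0.333 to 0.0622.

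**Figure D4:**
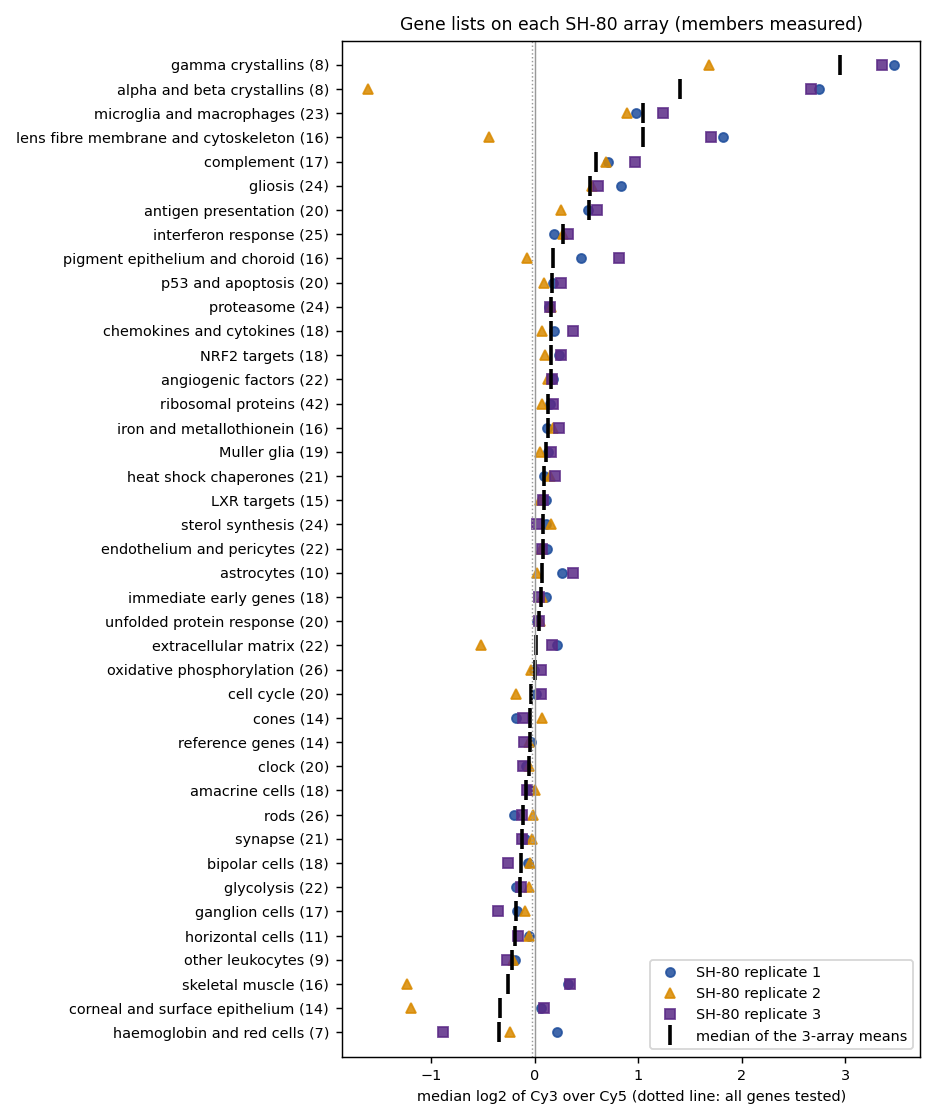
Median log2 of Cy3 over Cy5 (horizontal axis) of 41 gene lists on SH-80 replicates 1 (blue circles), 2 (orange triangles) and 3 (purple squares), with black ticks for the median of the 3-array means, no error bars and the number of measured members in brackets. The arrays lie together for most lists, and replicate 2 is lowest by more than 1 log2 unit for the crystallin, lens fibre, skeletal muscle and surface epithelium lists.

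Ribosomal, proteasome and oxidative phosphorylation lists had small medians whose sign depended on the scaling, against shares of 4.61% higher and 10.1% lower among all genes. Of 42 ribosomal protein genes 7 passed as higher and 0 as lower, with a median of 0.129, led by Rpl3 (0.37, 0.41 and 0.49, limma adjusted p = 0.0219), Rpl19 and Rplp1, but the median turned to -0.273 with arrays centred on their medians, where Rpl28 went from 0.32 to -0.0122. Of 24 proteasome genes 5 passed as higher and 0 as lower (Psmb1 at 0.37, Psmd14 at 0.28), with a median of 0.155 that turned to -0.194, Psma7 and Psmd11 (0.28 and 0.26) then lying at -0.0428 and -0.00437. Of 26 oxidative phosphorylation genes 6 passed as higher and 0 as lower, Ndufa4 at 0.48 having the highest mean, and the list median went from 0.00366 to -0.336, with Atp5c1, Atp5o and Cox5a (0.28, 0.27 and 0.26) then at -0.0977, -0.036 and -0.122. On the SH-42 arrays Rpl3 lay at 0.40, 0.42 and 0.34, and Cox5a at 0.31, 0.25 and 0.24. The glycolysis median of the SH-80 arrays kept its sign, at -0.144 and at -0.49 with arrays centred on their medians. Of 22 glycolysis genes, Tpi1 passed as higher (0.23, but -0.18 with that centring), and Gapdh (-0.51, another probe at 0.07), the hexokinase gene Hk1 (-0.44) and the lactate carrier gene Slc16a1 (-0.35) as lower.

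Several lists gave little, where 4.61% of all genes passed as higher and 10.1% as lower. By limma 0 of 24 sterol synthesis genes, 0 of 15 targets of the oxysterol receptor LXR and 0 of 20 clock genes passed (4, 2 and 9 at an unadjusted p under 0.05). Of 18 immediate early genes Ier2 was higher at 0.49 and Egr4 lower by at least 1.18-fold. Of 20 cell cycle genes Tyms, which makes thymidylate, was lower at -0.34 and Dlgap5 by at least 1.16-fold, and of 9 genes of other leukocytes Nkg7 of killer cells was lower at -0.33 and the neutrophil protease gene Elane at -0.28. Of 7 red cell genes Slc4a1 passed as lower, not well above background in Cy3. The array medians of that list were 0.21, -0.242 and -0.889, and its summed Cy5 signal was 13.76, 14.25 and 15.18 as log2 against 13.98 to 14.04 in Cy3, so here replicate 3 stood apart. Of 14 reference genes Hprt was lower at -0.30, like Gapdh.

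Outside the lists, Fabp5, a fatty acid binding protein of skin, glia and macrophages, had the highest mean among the genes that met these conditions. It lay at 2.32, 0.44 and 2.25 (1.67 ± 0.401, limma adjusted p = 0.0441), with Cy5 at 12.80, 14.57 and 12.84, so replicate 2 was again the low one. Calca, the gene of calcitonin and its related neuropeptide, lay at 0.76, 1.18 and 1.41 (adjusted p = 0.0488), but its other probe averaged 0.07. Tnc, a matrix protein of injured tissue, lay at 0.90, 0.65 and 0.65, Gimap6, a lymphocyte GTPase, at 0.78, 0.81 and 0.88, and Abi3, an actin regulator of microglia, at 0.72, 0.77 and 0.71. Cadm4, a cell adhesion molecule (0.75, 0.82 and 0.72, adjusted p = 0.015), and Lrp12 (0.53, 0.50 and 0.64) were among the higher genes of smallest p. On the SH-42 arrays Cadm4 lay at 0.75, 0.42 and 0.70 and Lrp12 at 0.54, 0.53 and 0.52, beside the values on the SH-80 arrays.

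Under the same conditions (a symbol, past the threshold, well above background in both channels, 1 sign on every array and probe), most of the lowest means belonged to very bright features. Of the 100 brightest genes, 56 passed as lower and 0 as higher, with a median of -0.507 and 92 below 0 on all 3 arrays, against 38.8% of all genes. Slc10a1, a bile acid carrier of liver, had a Cy5 signal of 18.42, 18.33 and 18.52 and lay at -1.12, -0.96 and -1.26 (-1.11 ± 0.11, limma adjusted p = 0.015). Kctd14 (-1.05), the coagulation factor gene F10 (-0.95), Fam177a2, Synrg and Medag lay in the same range of brightness. Where such a gene had another probe, that probe was nearer 0, at -0.03 for Kctd14, -0.09 for Fam177a2, -0.10 for Synrg and -0.16 for Medag. Pde5a, which degrades cyclic GMP, had the lowest mean of the named genes without being among the bright ones: its Cy3 signal was 8.82, 8.82 and 8.77, its Cy5 signal 10.10, 9.95 and 9.72, and its ratio -1.27, -1.13 and -0.95 (-1.12 ± 0.139, adjusted p = 0.0218). Psme3, an activator of the proteasome, Capza1, an actin capping protein, Ralgps1, Tnfrsf9 and Golt1a had the smallest p-values on the lower side, from -0.64 to -0.78. Other probes of Capza1 averaged -0.16, -0.12 and -0.15. On the SH-42 arrays Psme3 lay at -0.75, -0.66 and -0.70, close to its -0.75, -0.65 and -0.81 on the SH-80 arrays.

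The second comparison asks whether the SH-80 arrays differ from the SH-42 arrays, the same dose and day, and any dye effect that is the same on every array drops out of it. Slide does not: 2 of the 3 SH-42 arrays were on slide 1 and every SH-80 array was on slide 2, so compound and slide cannot be fully told apart. Within slide 2, with SH-42 replicate 3 alone on the other side and assumed to vary like the SH-80 arrays, 0 genes passed (limma, 768 at an unadjusted p under 0.05). Of 24079 genes 0 passed (limma, smallest adjusted p = 0.691), which is 0%, while 942 passed at an unadjusted p under 0.05. That does not show that the compounds act alike: for Crygc the difference was 1.88 (95% interval -0.08 to 3.84), for C3 1.65 (-0.84 to 4.15), for Gfap 1.60 (-0.23 to 3.42) and for Aif1 1.14 (-0.53 to 2.82). For Vegfa it was 0.02 (-0.32 to 0.36), a tighter bound. The SH-42 comparison with control had 145 calls (0.602%), 14 higher (0.0581%) and 131 lower (0.544%). Both comparisons may share control pools, so their values are given side by side only.

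Among the genes of smallest p in this difference, Hmox1, the heme-degrading enzyme, had the widest gap. It lay at 0.69, 0.53 and 0.34 on the SH-80 arrays and at -1.96, -1.27 and -0.57 on the SH-42 arrays. SH-42 replicate 3, on the slide of the SH-80 arrays, was the nearest to them. The difference was 1.79 ± 0.336 (95% interval 0.97 to 2.60, limma adjusted p = 0.691). The other Hmox1 probe averaged 0.11 on the SH-80 arrays and lay at -1.06, -0.05 and -0.06 on the SH-42 arrays. For that probe only SH-42 replicate 1 stood far from the SH-80 arrays. H1f4, a linker histone gene, lay at -0.14, -0.09 and -0.08 against 0.49, 0.87 and 0.56, a difference of -0.75 (-1.02 to -0.47). The endoplasmic reticulum disulfide isomerase gene Pdia3 differed by 0.54 (0.30 to 0.78), Dynlt3 of the dynein motor by 0.48 (0.29 to 0.66), the splicing gene Prpf19 by 0.47 and the arginine methyltransferase gene Prmt1 by 0.39. Prpf40b, Slc49a4, Gatad2b, Zdhhc1 and Brd8dc differed the other way, by -0.33 to -0.44, and Rnu3b1, a small nucleolar RNA, by 0.61. The means of these 12 genes on the SH-80 arrays lay between -0.61 and 0.52, and 0 passed this test.

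**Figure D5:**
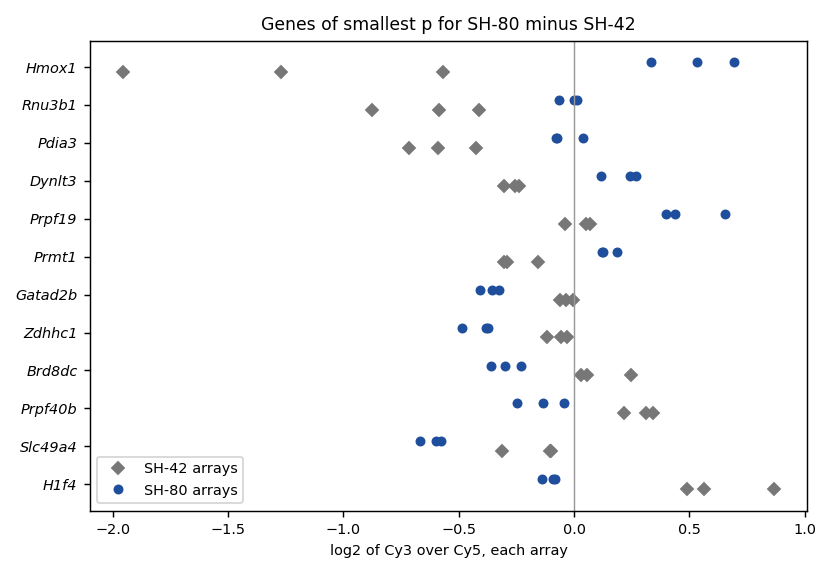
Log2 of Cy3 over Cy5 (horizontal axis) on each array for the 12 genes of smallest p in SH-80 minus SH-42 among genes well above background, with blue circles for the 3 SH-80 arrays, grey diamonds for the 3 SH-42 arrays and no error bars. These genes were picked for that difference, and none passed the adjusted threshold.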

How the data were processed

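RNA of pooled retinas was measured on 6 dual-colour arrays, 3 per compound, and groups were taken from the sample titles. Per the file headers, the deposited scanner files hold median spot intensity and median local background for each channel from Agilent Feature Extraction 11.0.1.1, with the log10 ratio and processed signals; the submitters' processing notes name version 9.3.2.1, and which applied was not settled. The deposited value table holds log2 ratios, and 99.7% of its values lay within 0.01 of log2 processed Cy5 over Cy3 plus a constant for each array. Its column medians for the SH-80 arrays were -0.0611, -0.0464 and -0.0754; its scale and direction were found this way, and the reason for its centring stays unknown.

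From the median intensities, background was corrected by normexp with an offset of 50, which draws dim ratios towards 0, and arrays were normalized by loess with control spots at weight 0 and then removed, leaving 43020 spots and 39429 probes (limma 3.58.1, data.table version 1.17.8, jsonlite 2.0.0, R 4.3.3; Python 3.11.15 and matplotlib 3.10.9 for sequences and plots). For signals of single channels only, mean log signals over both channels were then quantile normalized between arrays, which left the log ratios unchanged. Spots of 1 probe were averaged. Probes had to clear background well on 3 or more arrays in 1 channel or the other; 9972 did not and were dropped, and the brightest probe stood for its gene. Names came from the array files, updated through RefSeq accessions, and 15931 of 24079 genes tested had a symbol.

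The main test was limma's lmFit and eBayes on log2 ratios of all 6 arrays with 1 mean per compound, Benjamini-Hochberg adjusted. Where a channel was not well above background on any array, a bound against the dimmest signal well above background is given as "at least". For Cxcl1 that bound equalled the estimate, and the estimate is given. Named genes were those past the threshold and well above background with the same sign on every SH-80 array and every probe (the highest, the lowest and those of smallest p), up to 4 of smallest p in each of 41 lists, the widest ranges, the 12 of the compound difference, and Gfap, Aif1, Rbpms and Vegfa. Crygd, Crygn and the few called members of lists with 1 to 3 calls were added after their values were seen. The genes, lists and comparisons were chosen with earlier results of these data known. Scripts were tested on simulated data. Alternatives changed the background correction, normalization, filter, probe summary, slide and replicate blocks, array weights and the arrays used. No 2 of the 15 array pairs held identical values. Samples with the same replicate number did not deviate together (r = -0.154, -0.431 and 0.181), so the numbers were not taken as pairs. A few genes that the naming rule picks are not reported here.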

Additional observations from a re-analysis of the deposited data

Results flagged for a closer look

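The median of 20 unfolded protein response genes had opposite signs with the compounds. On SH-80 replicates 1, 2 and 3 it was 0.0249, 0.0512 and 0.0431, and on the SH-42 arrays it was -0.194, -0.0426 and -0.00317. The last of these, on SH-42 replicate 3, lay above that array's median of all genes, -0.021. All 41 lists were searched for such opposite signs, and this was the only one found. The median of the members' differences, SH-80 minus SH-42, was 0.124. The difference was not tested, and the median of the SH-80 means went from 0.0441 to -0.255 with arrays centred on their medians.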

How the results depend on the processing

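The number of genes called in SH-80 against control was 3533. It stayed within 1.5 times that, at 2376 to 5134, with another normexp offset, no background correction, processed signals, the deposited value table, median centring, no filter, the mean of the probes or slide as a random block. It was 487 with at least 1.5-fold asked, 731 with scale normalization between arrays, 2138 with the strict filter, 9198 with the SH-80 arrays alone and 10138 with array weights. A fixed slide term gave 0 calls (limma, 2988 unadjusted) and the replicate number as a block gave 0 (limma, 7156 unadjusted), although the numbers did not pair the arrays. Leaving out 1 array gave 0 to 9345. Without SH-42 replicate 1 and SH-80 replicate 2, chosen after seeing the data because their Cy5 channels stood apart, it was 5989, and SH-80 minus SH-42 then had 20 calls (19 higher, 1 lower). That difference otherwise had 0 in every alternative run, at 246 to 2578 unadjusted (limma), and 0 to 0 without 1 array. The share of calls that were higher, 31.4%, was 23.8% with processed signals, 24.5% with the deposited table, 44.1% with no filter, 41.8% with the SH-80 arrays alone, 40.8% with array weights and 43.0% without both arrays.

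Signs turned for a few genes. Median centring, under which all genes together had a median of -0.15 in place of -0.0305, gave -0.0977 for Atp5c1, -0.036 for Atp5o, -0.0516 for Cdc37, -0.122 for Cox5a, -0.0339 for Cryaa, -0.0911 for Ndrg1, 0.0586 for Onecut1, -0.0428 for Psma7, -0.00437 for Psmd11, -0.066 for Ptges3, -0.0122 for Rpl28 and -0.18 for Tpi1. Slide as a fixed block gave -0.00643 for Aif1, 1.102 for Crygn, -0.0577 for H2-T23, -0.0255 for Psmb10 and 0.0437 for Rbpms, and as a random block 0.000864 for Crygn. Crygn was 0.136 and Myl1 0.0456 with a normexp offset of 0, 0.33 and 0.187 with processed signals, and 0.34 and 0.196 in the deposited table. Without SH-80 replicate 2, with or without SH-42 replicate 1, Crygn was 1.23, Myl1 1.61 and Tnni2 1.22. Leaving out 1 array in turn, the range was -0.455 to 2.105 for Cryaa, -0.714 to 1.23 for Crygn, -1.13 to 1.61 for Myl1, -0.573 to 2.099 for Nid1 and -1.15 to 1.22 for Tnni2. The cause of these changes was not tested. Of 41 list medians, 12 changed sign with median centring, 20 with slide as a fixed block and at most 3 in any other alternative. The planned use of mean spot signals was not run. Signal near background limits the 746 lower calls that Cy3 did not measure.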
